A study of Homo sapiens with 8 samples.

Results

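The suppressors of cytokine signaling, the SOCS family, were examined in human EndoC-βH5 beta cells exposed to inflammatory cytokines. The members were taken by gene symbol, SOCS1 to SOCS7 and CISH, and all 8 were found among the 16525 genes with expression values. The established line EndoC-βH5 was derived from fetal pancreas with the immortalizing transgenes SV40 large T antigen and telomerase, which were removed afterwards, and the cells came from purchased frozen stocks. The control group held 4 libraries of untreated cells, and the cytokine group held 4 libraries of cells exposed for 48 h to interleukin-1β (IL-1β, 50 U/mL), interferon γ (IFNγ, 1000 U/mL) and tumor necrosis factor α (TNFα, 1000 U/mL) together. All libraries came from this 1 line, so no other genotype or donor was compared. Each control library shares a name stem with 1 cytokine library, and these pairs are called A, B, C and D; A and B belong to one naming series and C and D to another.

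SOCS proteins are the classical negative feedback of the JAK-STAT pathway. A cytokine receptor activates its Janus kinases (JAKs), these phosphorylate STAT transcription factors, and the STATs switch on SOCS genes whose products block the kinase or the receptor and, through the SOCS box, recruit a ubiquitin ligase to degrade them. In beta cells SOCS1 and SOCS3 are known as brakes on IFNγ and IL-1β signaling, while SOCS2 and CISH are known as targets and inhibitors of the growth hormone and prolactin pathway, which runs through STAT5.

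Expression is given in CPM, the reads of a gene scaled by the total reads of its library. Reads on the listed genes ranged from 36577438 to 40117636 per library, and 1 read was worth 0.0196 to 0.0214 CPM. Of the marker genes looked up, all 10 beta-cell markers were listed, with summed levels of 24063 to 36485 CPM in control and 29104 to 52795 CPM in cytokine libraries. That sum is mostly CHGA and IAPP. By the rule for calls given below, 5 of the 10 fell and 0 rose, against 17.5% and 9.52% of all genes. The 5 fell by log2 fold changes from -0.78 to -2.60, the largest being that of G6PC2 (named after its values were seen). After TMM scaling, described below, 5 fell and 1 rose, against 11.7% and 13.0% of all genes. All 7 markers of other islet cells were also listed, with sums of 509 to 2241 CPM and 622 to 2078 CPM. Of these 1 rose (14.3%, against 9.52% of all genes). Only 2 of 6 exocrine and duct markers (CPA1 and KRT19), 1 of 5 mesenchymal and endothelial markers (COL1A1) and 1 of 6 immune markers (CD14, up to 3.26 CPM) were listed, and of these CPA1 fell by 1.06 on the log2 scale. The part of these marker changes in the changes of the SOCS genes was not tested. In RNA from whole cultures a lower value can come from fewer cells of a type or from less RNA per cell, and these cannot be told apart. Nothing in the labels says whether the libraries of a group came from separate cultures, so p-values measure only the spread between these libraries, which may be technical.

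At the 48 h time point the family had split. SOCS1 and SOCS3 were higher in every cytokine library than in any control library, SOCS2 and CISH were lower in every cytokine library than in any control library, and SOCS4, SOCS5, SOCS6 and SOCS7 overlapped between the groups. A change was called where the adjusted p was below 0.05 and the log2 fold change beyond 0.5 in either direction, using limma on log2(CPM + 0.1) with Benjamini-Hochberg adjustment over all genes. By this rule 2 members rose, 2 fell and 4 were not called, so 4 of 8 were called against 27.0% of all genes, with 9.52% of genes higher and 17.5% lower with cytokines. With the pairs as a replicate block it was again 4 of 8, against 35.4% of all genes, and in edgeR on reads 4 of 8, against 24.6%. Ranges of the groups were apart in the same 4 of 8 members and in 32.8% of all genes, 10.8% with higher and 21.9% with lower cytokine libraries. All 8 members also had a mean of at least 1 CPM, but SOCS3 reached the 0.5 CPM needed for listing only in cytokine-exposed cells among these libraries.

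**Figure D1:**
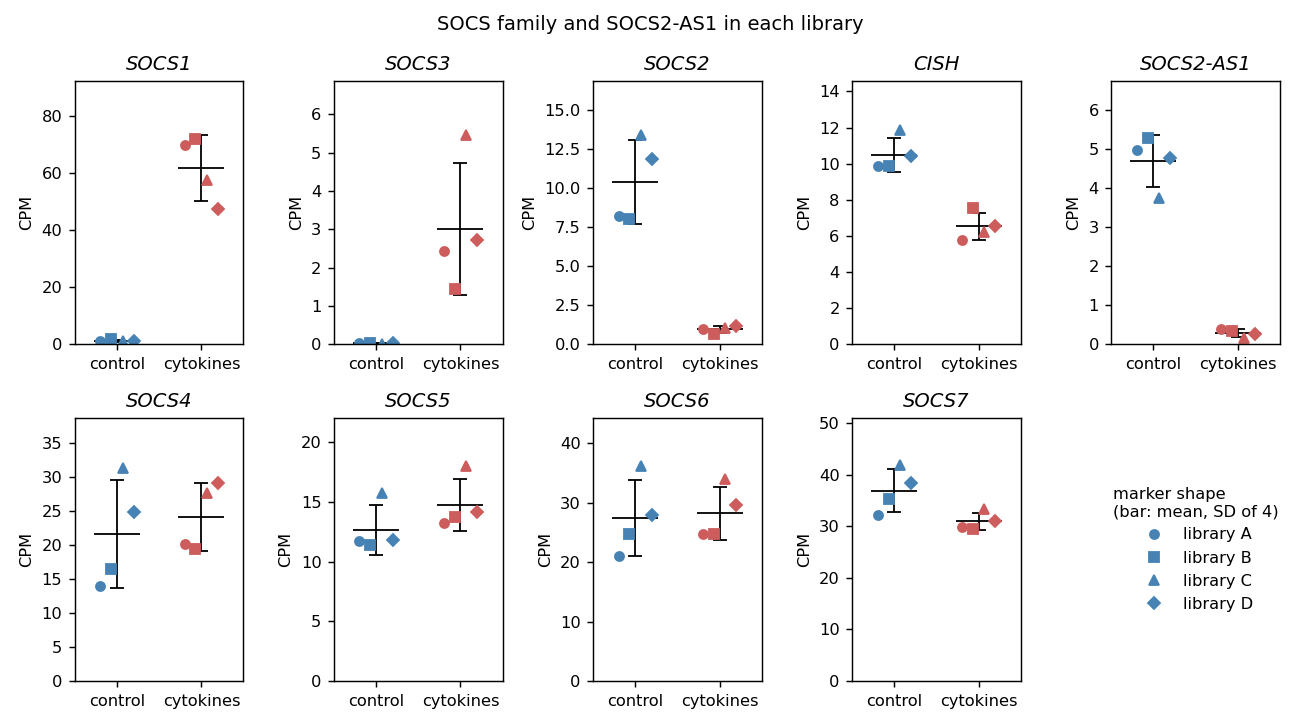
Expression in CPM (vertical axes, each starting at 0) of the 8 SOCS genes and of SOCS2-AS1 in control and cytokine libraries, with 1 point per library, marker shapes for libraries A to D, and bars for the mean and SD of 4. SOCS1 and SOCS3 lie near 0 in control cells and apart from it with cytokines, SOCS2, SOCS2-AS1 and CISH lie lower with cytokines, and the groups overlap in the other 4 genes.

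SOCS1 binds JAK1, JAK2 and TYK2 directly and blocks their kinase activity, and it is the main known inhibitor of IFNγ signaling. It is a protein-coding gene (ENSG00000185338) on chromosome 16 from 11254405 to 11256200, minus strand, in GRCh38. SOCS1 measured 0.962, 1.69, 0.956 and 1.08 CPM in control libraries A to D and 69.9, 71.98, 57.5 and 47.4 CPM in cytokine libraries A to D. All cytokine libraries were far above all controls, and libraries C and D were the lowest of the cytokine group. The mean went from 1.17 ± 0.352 CPM to 61.7 ± 11.5 CPM (SD, n = 4 each), a 52.7-fold ratio of means. On the log2 scale SOCS1 rose by 5.62 (SE 0.21, adjusted p = 1.74e-08, limma). These values rested on 45 to 80 reads per control library and 2358 to 3370 reads per cytokine library. SOCS1 lies inside the span of RMI2, a gene of the opposite strand with which it shares 0 exon bases. RMI2, looked up after its overlap was seen, went from 6.52 ± 1.85 to 13.05 ± 0.985 CPM, a rise of 1.03 on the log2 scale (adjusted p = 0.00307, limma).

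SOCS3 is the feedback inhibitor of receptors that contain gp130, the shared subunit encoded by IL6ST, and it also binds JAK1 and JAK2. The gene (ENSG00000184557) lies on chromosome 17 from 78356778 to 78360077, minus strand. SOCS3 had 1, 1, 0 and 2 reads in control libraries A to D, equal to 0.0214, 0.0212, 0 and 0.0391 CPM. With cytokines it measured 2.43, 1.45, 5.46 and 2.71 CPM, from 114, 68, 271 and 135 reads. Control cells were thus at the limit of detection, where a count of 0 allows up to 3 reads (0.0587 to 0.0641 CPM), and cytokine library C was the highest of its group. Over the groups, 588 reads stood against 4, and the ratio of levels was 149 with an exact 95% interval of 57.7 to 547 that covers counting error only. In limma SOCS3 rose by 4.55 on the log2 scale (SE 0.38, adjusted p = 7.75e-06). Because the control level is so low, this fold change depends on the pseudocount: it was 1.88 with a pseudocount of 1 and 7.17 in edgeR on reads (adjusted p = 2.00e-05), and SOCS3 was called in each case.

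SOCS2 is known as the inhibitor of the growth hormone receptor. It lies on chromosome 12 from 93569814 to 93583487, plus strand (ENSG00000120833). SOCS2 measured 8.19, 8.04, 13.4 and 11.8 CPM in control libraries A to D and 1.001, 0.662, 1.007 and 1.19 CPM in cytokine libraries A to D. Every cytokine library was below every control, and among the controls C and D were above A and B. The mean fell from 10.4 ± 2.67 to 0.964 ± 0.219 CPM (SD, n = 4 each), so that the control mean was 10.8 times the cytokine mean. On the log2 scale the fitted change was -3.29 (SE 0.24, adjusted p = 3.24e-06, limma), from 380 to 673 reads per control library and 31 to 59 reads per cytokine library.

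SOCS2-AS1 is a long non-coding RNA (ENSG00000246985) read from the minus strand at 93542463 to 93571768 of chromosome 12, across the start of SOCS2, with 277 exon bases in common. It was the only listed RNA whose name joins a member's symbol to a suffix by a hyphen. SOCS2-AS1 measured 4.98, 5.27, 3.74 and 4.77 CPM in control libraries A to D and 0.383, 0.342, 0.161 and 0.261 CPM in cytokine libraries A to D. Its ranges were apart as well, and the fitted change was -3.66 on the log2 scale (SE 0.26, adjusted p = 2.31e-06, limma). The libraries were strand-specific and were counted with default settings, which keep strands apart, so SOCS2 and SOCS2-AS1 were counted from different reads. The SOCS2 to SOCS2-AS1 log2 ratio within libraries was 1.10 ± 0.56 in control and 1.47 ± 0.59 in cytokine cells (SD, n = 4 each). That difference of 0.37 was smaller than the spread within the groups (exact permutation test, 2-sided, p = 0.371). Within pairs the ratio was higher with cytokines in 4 of 4, by 0.19 to 0.54 (SD 0.17), a spread smaller than the difference, but with a pseudocount of 1 the difference was -0.37. A second RNA with a related name, the processed pseudogene SOCS2P2 on chromosome 22, holds a sequence that matches SOCS2 at 78.6% of 590 aligned positions. SOCS2P2, looked up after its values were seen, measured 0.791 ± 0.330 CPM in control and 0.429 ± 0.223 CPM in cytokine cells and was not called (log2 fold change -0.78, adjusted p = 0.188, limma).

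CISH encodes CIS, which binds the receptors for erythropoietin, prolactin and other cytokines at the sites where STAT5 docks, and it is itself a textbook STAT5 target. The gene (ENSG00000114737) lies on chromosome 3 from 50606490 to 50611831, minus strand. CISH measured 9.86, 9.86, 11.8 and 10.4 CPM in control libraries A to D and 5.77, 7.54, 6.22 and 6.57 CPM in cytokine libraries A to D. The groups did not overlap, but their edges, 7.54 and 9.86 CPM, lay closer than in SOCS2. The mean fell from 10.5 ± 0.937 to 6.53 ± 0.751 CPM (SD, n = 4 each), a fitted change of -0.68 on the log2 scale (SE 0.15, adjusted p = 0.00558, limma). This was the smallest of the 4 called changes, with a 95% interval of -1.005 to -0.35. The call was lost on length-scaled values (TPM; log2 fold change -0.56, adjusted p = 0.116, limma) and in a test against a minimum change of 0.5 (adjusted p = 0.607, limma treat), where 3 of 8 members were called, against 16.5% and 8.34% of all genes. CISH shares 218 exon bases with MAPKAPK3 on the opposite strand, and MAPKAPK3, looked up for this overlap, was not called (log2 fold change -0.20, adjusted p = 0.307, limma).

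SOCS4 and SOCS5 are known mainly for regulating the epidermal growth factor receptor, and SOCS6 and SOCS7 for regulating receptor tyrosine kinases and insulin signaling. None of these 4 genes was called. SOCS4 (chromosome 14, 55027230 to 55049488) ranged from 14.03 to 31.4 CPM in control and from 19.4 to 29.2 CPM in cytokine libraries, with a log2 fold change of 0.20 (95% interval -0.35 to 0.75). For SOCS5 (chromosome 2, 46698952 to 46780245) the ranges were 11.4 to 15.8 CPM and 13.2 to 18.0 CPM, with a log2 fold change of 0.22 (95% interval -0.13 to 0.57). SOCS5 shares 160 of its 7598 exon bases with LINC01118 on the same strand, and reads there are uncertain between the genes. SOCS6 (chromosome 18, 70288901 to 70330200) spanned 21.1 to 36.2 CPM and 24.7 to 33.9 CPM and gave the estimate nearest to 0, 0.06 (95% interval -0.34 to 0.45). SOCS7 (chromosome 17, 38352228 to 38405593) was at 32.1 to 41.9 CPM and 29.5 to 33.3 CPM, and the groups met only at their edges, with a log2 fold change of -0.25 (95% interval -0.51 to 0.01). The adjusted p-values of these 4 were 0.586, 0.323, 0.845 and 0.139 (limma), in the order SOCS4 to SOCS7. On CPM each interval reaches beyond 0.5 in one direction or the other except that of SOCS6, so a change of that size was not excluded for the other 3. This depends on the scaling: after TMM, described below, SOCS6 was at 0.21 (SE 0.14) and SOCS7 at -0.10 (SE 0.09).

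The scaling of the libraries moved all estimates slightly. Across the whole table the median log2 fold change stood at -0.17 on CPM and -0.02 after TMM scaling, a method that centres libraries on their shared genes. With TMM 2154 genes (13.0%) were called higher and 1933 (11.7%) lower, 24.7% in all, against 1574 and 2896 on CPM. The members kept the split of 2 higher and 2 lower, with log2 fold changes after TMM of 5.76 for SOCS1, 4.63 for SOCS3, -3.14 for SOCS2 and -0.53 for CISH. The CISH estimate then lay just past the threshold of 0.5 (adjusted p = 0.013, limma). For the 4 members not called the TMM estimates were 0.35, 0.37, 0.21 and -0.10 in the order SOCS4 to SOCS7.

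**Figure D2:**
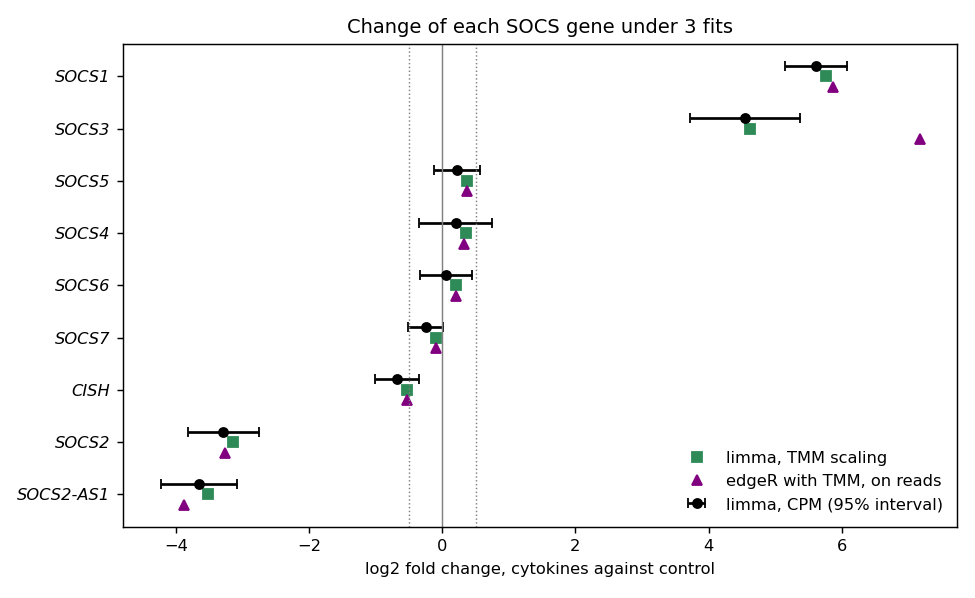
Log2 fold change (horizontal axis, cytokines against control) of the 8 SOCS genes and SOCS2-AS1 by limma on CPM with its 95% interval (circles), limma after TMM scaling (squares) and edgeR on reads (triangles), with dotted lines at -0.5 and 0.5. The fits lie close together except for SOCS3, at 4.55 by limma and 7.17 by edgeR, and CISH lies nearest to the -0.5 line of the called genes.

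The 4 called members moved the same way in both naming series. Within series A and B and within series C and D, the log2 fold change was 5.69 and 5.55 for SOCS1, 4.03 and 5.07 for SOCS3, -3.17 and -3.41 for SOCS2, and -0.57 and -0.79 for CISH. Pair by pair, SOCS1 differed by 5.33 to 6.04, SOCS3 by 3.68 to 5.80, SOCS2 by -3.61 to -2.91 and CISH by -0.92 to -0.38, so the direction was the same in 4 of 4 pairs for each. The difference between the series was tested as an interaction term, and limma passed 0 of 8 members at an adjusted p below 0.05, against 0.0303% of all genes. At an unadjusted p below 0.05 it also passed 0 members, and at an adjusted p below 0.05 after TMM scaling 0. For these last counts the share of all genes was not counted. The widest gap was that of SOCS3, 1.04 with a 95% interval of -0.43 to 2.50, so a sizeable difference between the series was not excluded for this gene.

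The order of the members by level also changed. Levels of different genes were compared per exon length, in TPM, the CPM divided by length and rescaled to a common total. In control cells SOCS6 led with 18.0 ± 6.28 TPM (SD, n = 4), followed by SOCS7 at 16.6, SOCS4 at 12.2, CISH at 7.93, SOCS5 at 6.46, SOCS2 at 6.02, SOCS1 at 2.46 and SOCS3 at 0.0287 TPM. The ranges of neighbours in this order overlapped down to SOCS2, so by range only SOCS1 and SOCS3 were set apart at the low end. Within libraries, SOCS7 was above SOCS4, SOCS4 above CISH and CISH above SOCS5 in 4 of 4, while SOCS6 was above SOCS7 and SOCS5 above SOCS2 in 3 of 4. With cytokines SOCS1 led with 140 ± 11.7 TPM, above the range of SOCS6 at 19.8 TPM, and was higher than 95.3% of all genes with a length, against 17.3% in control cells. SOCS7 followed at 14.96, SOCS4 at 14.5, SOCS5 at 8.13, CISH at 5.29, SOCS3 at 4.71 and SOCS2 at 0.599 TPM. The ranges of SOCS6, SOCS7, SOCS4 and SOCS5 overlapped from neighbour to neighbour, as did those of CISH and SOCS3, while SOCS2 lay apart as the lowest. Summed over the 8 genes the level was 69.7 ± 21.8 TPM in control and 208 ± 13.7 TPM in cytokine cells (SD, n = 4 each). The control sums ran from 48.8 TPM in library A to 94.5 TPM in library C, with A and B both below C and D. No such split by naming series was seen in the cytokine sums, so the rise of the sum was larger in A and B. That difference was not tested. SOCS1 made up 3.79% ± 1.47 of the sum in control and 67.5% ± 6.84 in cytokine cells, and SOCS2 made up 8.49% ± 0.869 and 0.288% ± 0.0914.

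**Figure D3:**
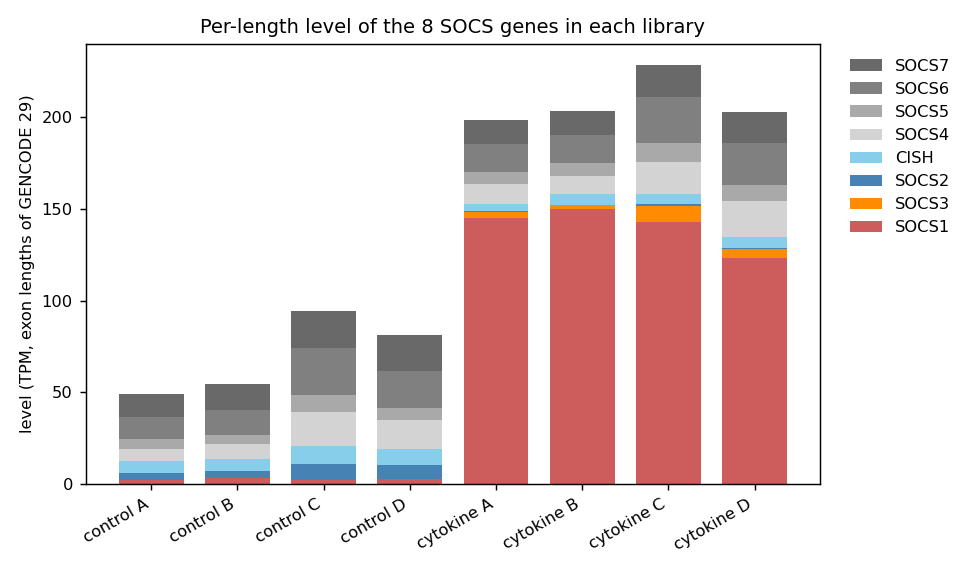
Level of the 8 SOCS genes in TPM (vertical axis from 0, stacked) in each of the 4 control and 4 cytokine libraries. SOCS1 is a thin band in the control bars and the main part of every cytokine bar, where the sum lies between 198 and 229 TPM against 48.8 to 94.5 TPM in control cells.

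Promoter sequences show which STAT-type motifs stand next to these genes. RefSeq start sites of GRCh38.p14 gave promoter windows for 5 of the 8 members, and the 250 bases before each start were searched on both strands for the GAS motif TTCNNNGAA, which STAT dimers bind, and for GAAA repeated after any 2 bases, the core of the interferon-stimulated response element (ISRE). The stretches of 3 members are shown from 5′ to 3′ in the direction of the gene, with matches in capitals. Bases past the gene's own annotated start were left out, but other genes were not considered. The SOCS1 stretch lies within the span of RMI2 and the CISH stretch within that of MAPKAPK3, both on the opposite strand. SOCS1 is shown as the member with the largest rise (chr16:11256205-11256454, minus strand), CISH as a member that fell (chr3:50611832-50612024, minus strand) and SOCS4 as one that was not called (chr14:55026986-55027229, plus strand).
SOCS1: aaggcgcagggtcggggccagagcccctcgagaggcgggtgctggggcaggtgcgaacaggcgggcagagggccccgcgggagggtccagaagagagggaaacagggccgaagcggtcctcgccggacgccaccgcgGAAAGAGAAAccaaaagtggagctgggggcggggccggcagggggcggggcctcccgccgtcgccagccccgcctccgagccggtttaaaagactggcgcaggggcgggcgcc
CISH: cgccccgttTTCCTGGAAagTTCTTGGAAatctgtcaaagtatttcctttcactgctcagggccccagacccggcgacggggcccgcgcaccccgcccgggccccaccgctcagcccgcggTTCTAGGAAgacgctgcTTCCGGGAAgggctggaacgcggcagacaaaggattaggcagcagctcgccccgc
SOCS4: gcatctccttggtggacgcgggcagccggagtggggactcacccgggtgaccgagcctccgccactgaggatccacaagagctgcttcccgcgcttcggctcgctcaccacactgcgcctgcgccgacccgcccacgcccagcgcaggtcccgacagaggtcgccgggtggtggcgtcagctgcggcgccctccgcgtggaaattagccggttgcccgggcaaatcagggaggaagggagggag
The SOCS1 stretch held 1 match to the ISRE letters, 113 to 104 bases before the start, and 0 to GAS. The ISRE letters were found in 3.02% and the GAS letters in 6.57% of all 35116 windows. CISH held 4 GAS matches, the first 241 and the last 112 bases before the start, and 4 or more GAS matches were found in 5 of all windows (0.0142%). The SOCS4 stretch held neither motif. The windows of SOCS3, the other member that rose, and of SOCS6 also held 0 matches to either. The SOCS3 windows start from RefSeq sites at 78360925 and 78359667, on either side of the GENCODE start at 78360077. Neither SOCS3 window covers the 250 bases just before the GENCODE start. Those bases were not searched, so the result does not show that they lack the motifs. A match is a description of the letters in this window and was not tested as a binding site.

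The rest of the JAK-STAT pathway was followed through lists of its parts and of textbook STAT targets, counted by limma on CPM. Of 111 genes listed besides the SOCS family, 89 were measured, of which 29 rose and 11 fell, a share of 44.9% against 27.0% of all genes. Of these 40 calls 15 were among the 17 textbook STAT targets, which are outputs of the pathway. The pooled share thus overstates the change among its parts, whose lists are given singly below. Under a test against a minimum change of 0.5, 21 of the 89 were called, and 8.34% of all genes. The median log2 fold change of the 89 was 0.13, that of the SOCS family 0.13 and that of all genes -0.17.

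Among the direct targets of the SOCS proteins, 1 of 4 Janus kinases rose and 1 fell (50%, against 27.0% of all genes called). JAK2, the kinase of the IFNγ and growth hormone receptors, rose from 5.46 ± 0.847 to 73.1 ± 11.0 CPM (log2 fold change 3.72, SE 0.15, adjusted p = 3.11e-08, limma). JAK3 fell by 0.70 on the log2 scale (adjusted p = 0.0314, limma), a call that was lost after TMM scaling (-0.55, adjusted p = 0.0968) and in 5 of 8 fits with 1 library left out (control A, B or D, cytokine C or D). JAK1 was at 82.3 ± 11.9 and 87.3 ± 16.9 CPM (SD, n = 4 each). TYK2 had a log2 fold change of -0.43, below the threshold of size, with an adjusted p of 0.0181 (limma). Of the 6 measured STAT genes 4 rose (66.7%, against 27.0% of all genes called). Among these 4, STAT2 rose by 2.05, STAT3 by 1.92 and STAT5A by 0.62 on the log2 scale. STAT5B, which carries growth hormone signaling, was at 0.31 and STAT4 at 0.20, and neither was called.

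Among 17 measured receptor genes 5 rose and 2 fell (41.2%, against 27.0% of all genes called). IL15RA, the specific subunit of the interleukin-15 receptor, rose most (log2 fold change 4.67), followed by IL6R at 2.04 and IL6ST at 1.44, which encode the subunits of the interleukin-6 receptor. EPOR, the receptor of erythropoietin, fell by 0.95 on the log2 scale. The growth hormone receptor gene GHR was at 8.03 ± 1.40 and 7.20 ± 0.644 CPM and the prolactin receptor gene PRLR at 3.15 ± 0.587 and 4.49 ± 0.880 CPM (SD, n = 4 each), and neither was called. Of 4 measured insulin receptor pathway genes that SOCS proteins act on, 2 rose and 1 fell (75%, against 27.0% of all genes called). IRS2 rose by 1.57 and IRS1 by 1.08, and IGF1R fell by 0.98 on the log2 scale. INSR, named after its values were seen, had a log2 fold change of -0.48, below the threshold of size, with an adjusted p of 0.00584 (limma).

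Of 13 measured inhibitors of the pathway outside the SOCS family 3 rose (23.1%, near the 27.0% of all genes called): USP18, a brake on the type I interferon receptor, by a log2 fold change of 1.43, DUSP3 by 0.83 and PTPN2, a JAK and STAT phosphatase, by 0.76. The list of ubiquitin ligase genes around the SOCS box held ELOB, ELOC and CUL5 among others. It gave 0 calls of 9 in limma on CPM, against 27.0% of all genes. In it 1 gene had an unadjusted p below 0.05, and edgeR and DESeq2 each called 1. That gene was CUL2, named after its values were seen, with a log2 fold change of 0.57 (adjusted p = 0.0554, limma on CPM). Limma also called CUL2 after TMM scaling (0.73, adjusted p = 0.00847) and with the replicate block (adjusted p = 4.17e-05). Whether CUL2 serves the SOCS box in these cells was not tested. Of 19 other SOCS box genes 1 rose and 5 fell (31.6%, near the 27.0% of all genes called). The widest falls were those of SPSB4 with -2.84, ASB9 with -1.07 and ASB1 with -0.86, and SPSB1 rose by 0.83. Textbook STAT targets rose in 13 and fell in 2 of 17 cases (88.2% called, against 27.0% of all genes). The rises were led by GBP1 at 9.89, IRF1 at 6.03 and CIITA at 4.69. GBP1 ranged from 0.0199 to 2.48 CPM in control libraries, so the size of its rise depends on the pseudocount. CIITA was at most 0.406 CPM in control libraries, and CCND1, named after its values were seen, at most 0.0423 CPM. Both were counted as rises, but they reached the 0.5 CPM needed for listing only in cytokine-exposed cells. TPH1 and TPH2, tryptophan hydroxylases known as prolactin targets in beta cells, fell by 1.21 and 0.81 on the log2 scale.

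**Figure D4:**
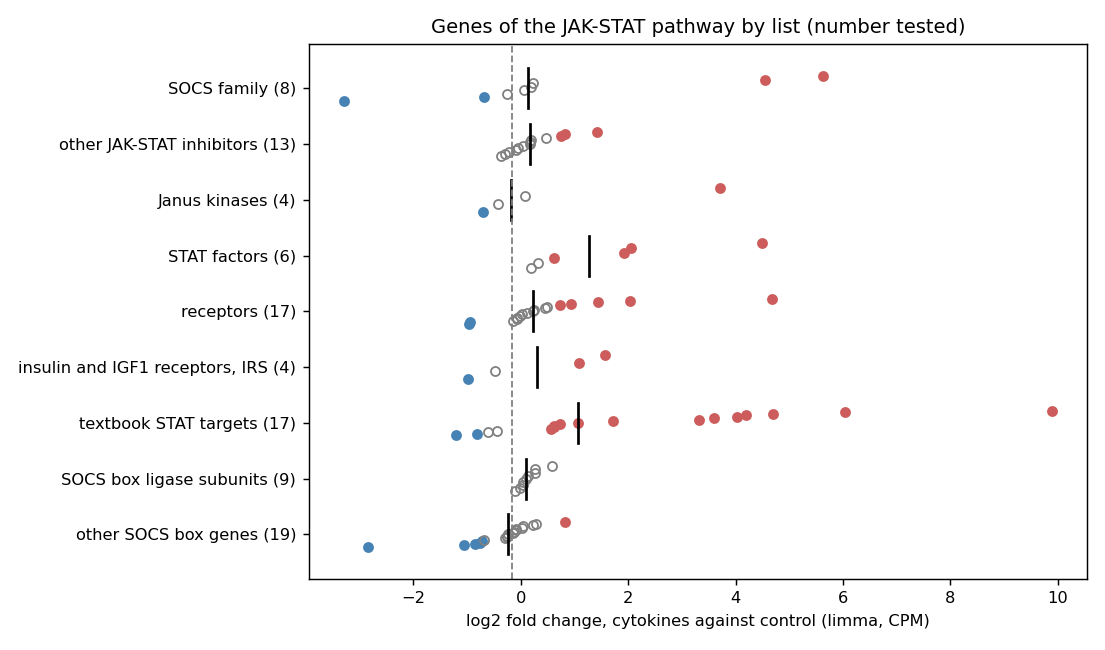
Log2 fold change (horizontal axis, cytokines against control, limma on CPM) of every measured gene of the SOCS family and 8 lists of the pathway, with red points for genes called higher, blue for genes called lower and open points for genes not called. Black bars mark the median of a list and the dashed line that of all genes (-0.17), and the SOCS family spans from -3.29 to 5.62 around a median of 0.13.

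Whether an inhibitor changed by more than what it acts on was tested with log2 ratios within each library. Of 14 planned ratios 10 were computed, since 4 with SOCS3 were left out for its control library at 0, and each was compared by a 2-sided exact permutation test whose smallest p is 0.0286, with Benjamini-Hochberg adjustment over the 10. The ratio of SOCS1 to JAK1 rose by 5.54 and that of SOCS1 to JAK2 by 1.90 (exact p = 0.0286 and adjusted p = 0.0408 for each). The ratio of SOCS1 to IRF1, a textbook STAT target, differed by -0.41 (exact p = 0.257, adjusted p = 0.286), and with a pseudocount of 1 it fell by 1.08 (adjusted p = 0.0357, exact permutation).

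On the STAT5 side the ratios moved down. SOCS2 against STAT5B fell by 3.60, CISH against STAT5B by 0.99, SOCS2 against GHR by 3.14, CISH against PRLR by 1.17 and SOCS2 against CISH by 2.61 on the log2 scale, each with the smallest possible exact p of 0.0286 (adjusted p = 0.0408). In all, 7 of the 10 ratios passed, and in each of the 7 the groups did not overlap. These are not 7 separate results. JAK1, STAT5B and GHR were not called and had small estimates beside those of SOCS1 and SOCS2, so the ratios of these members to them largely repeat the member's change. The ratios of CISH to STAT5B and PRLR also hold the log2 fold changes of STAT5B (0.31) and PRLR (0.50). Neither was called, but both are sizeable beside the -0.68 of CISH. The ratio of SOCS2 to CISH sets 1 inhibitor against another and not against a target.

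**Figure D5:**
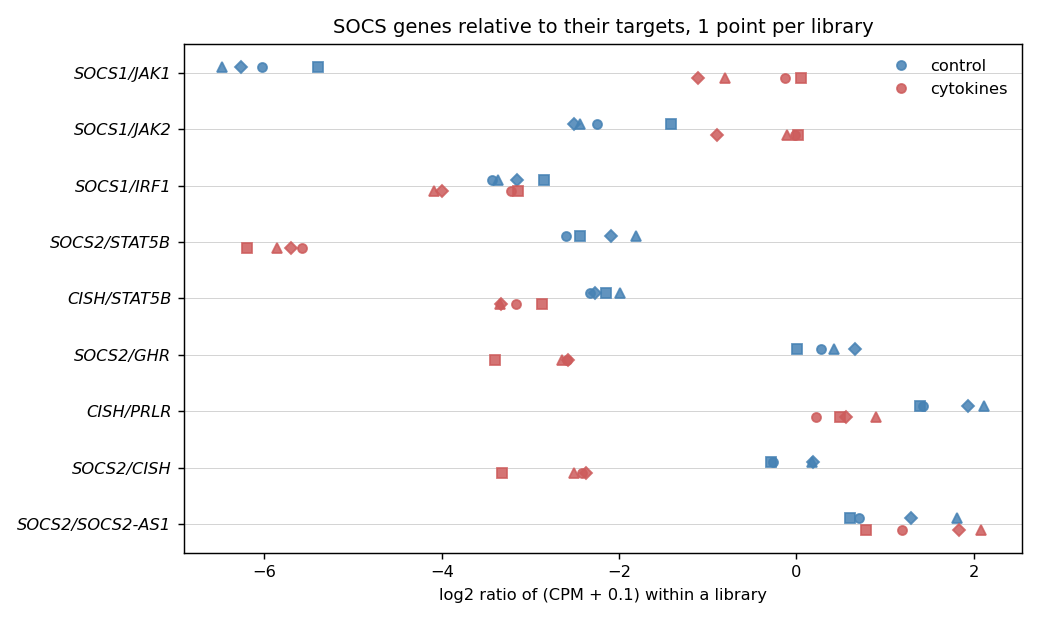
Log2 ratio of CPM + 0.1 within a library (horizontal axis) for 9 of the pairs of genes tested, with blue for control, red for cytokines and marker shapes for libraries A to D as in the plot of values by library. The colours are apart in 7 ratios and overlap for SOCS1/IRF1 and SOCS2/SOCS2-AS1.

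The genes whose profile over the 8 libraries lay closest to each changed member were found by the root mean square difference of log2(CPM + 0.1) after subtracting the control mean, among 14682 other genes. For SOCS1 these were LAMP3 (0.212), BATF2 (0.255) and TAP2 (0.285), the last a subunit of the antigen peptide transporter. SOCS3 lay closest to MAFF (0.319), ISG15 (0.395) and IL15RA (0.406), and SOCS2 to SYNDIG1L (0.286), PAPPA2 (0.296) and CHRNA4 (0.366). The closest to CISH were MIR217HG (0.0673), C3orf18 (0.0791) and NFS1 (0.0809), and these smaller distances go with its smaller change. The measure describes likeness over 8 libraries and was not tested.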

How the data were processed

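The authors sequenced strand-specific mRNA libraries, aligned reads with TopHat2 2.1.1 to GRCh38, counted them on Ensembl genes with HTSeq 0.9.1 and deposited CPM values of genes that passed 0.5 CPM in 4 or more samples. The table's 4 other columns of values were not used. In each library 100% of values were whole multiples of 1 read, within 0.05 of a read, which gave reads for edgeR 4.0.16 and DESeq2 1.42.0, run as alternatives to limma 3.58.1 (R 4.3.3, intensity trend, pseudocount 0.1, no block). Python 3.11.15 with pandas 2.3.3, numpy 2.4.6, scipy 1.17.1 and matplotlib 3.10.9 made the tables and plots. Gene coordinates and exon lengths came from GENCODE 29 (97.8% of genes had a length). Fits were tested on simulated data.

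The members and lists were chosen with earlier results of these data known. Named were the members, RNAs named after them, all JAK and STAT genes, genes of the ratios, up to 3 rises and 3 falls of each other list, and the 3 closest profiles of each called member. A few of these genes are not reported here. The columns carry no replicate number, so the shared name stem served as the replicate block: deviations from group means correlated by 0.57, 0.59, 0.80 and 0.74 within pairs A to D, although the crossed pairs of A and B gave 0.57 and 0.59, so this check does not separate A from B. The chi-square per gene between libraries of a group was at least 5.89, so none was a copy. Libraries A and B were the most alike, at 5.89 in the cytokine and 13.3 in the control group, against 66.6 or more for other pairs. The tests without a block treat the 4 libraries of a group as equally distinct. The alternatives were other scalings, pseudocounts of 0.5 and 1, a filter at 1 CPM, TPM, limma's treat, the block, a term for the series and leaving out each library. Combinations of TMM with the block and the interaction after TMM were added after seeing the data.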

Additional observations from a re-analysis of the deposited data

Results flagged for a closer look

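In 20 groups of 4 libraries, for the 8 SOCS genes and 2 related RNAs in each condition, the highest or lowest library was compared with its nearest neighbour by Dixon's test at the 95% level, which chance alone passes in about 1 in 20 groups. It was passed in 2. SOCS1 measured 1.69 CPM in control library B, from 80 reads, while the next highest control library had 1.08 CPM. SOCS5 measured 15.8 CPM in control library C, while the next highest control library had 11.8 CPM. Without control library B the log2 fold change of SOCS1 was 5.80, and without control library C that of SOCS5 was 0.33 and still not called.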

How the results depend on the processing

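Members called stayed at 4, the same genes, under every alternative except TPM and the test against a minimum change of 0.5, which each called 3 without CISH (16.5% and 8.34% of all genes). With the replicate block limma called 5852 of all genes in place of 4470 and again 4 members, and the block lowered the adjusted p of SOCS7 to 0.0105 and of SOCS5 to 0.0518, both still below the threshold of size. With TMM and the block SOCS7 was at 0.2004 and SOCS4, SOCS5 and SOCS6 at 0.00374, 0.00187 and 0.0175, again below that size. SOCS2P2 was called with the block (adjusted p = 0.0244, limma) but not with TMM and the block (0.0524) or in edgeR with both (0.0563). Among the pathway lists 21 genes were called under a test against 0.5 in place of 40, and 34 to 39 with 1 library left out. SOCS6, not called in any of these fits, ranged from -0.063 to 0.20 with 1 library left out and changed sign without control library A (-0.063) and without cytokine library C (-0.037). The SOCS2 to SOCS2-AS1 ratio changed sign with a pseudocount of 1 (-0.37, adjusted p = 0.286, exact permutation). Without any 1 library 0 ratios passed, since 3 against 4 libraries cannot go below p = 0.0571 in an exact permutation test. With the longest transcript as length, SOCS2 came 4th and CISH 6th in control cells. SOCS3 in control cells, with 4 reads in all, is limited by depth, and the size of its rise varies with the pseudocount and the tool.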
